A study of Homo sapiens with 12 samples.

Results

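The 44 genes described here belong to the endoplasmic reticulum (ER) stress response and to its ATF4 branch, read in IMR90 fibroblasts from human fetal lung. They were chosen by symbol and fall into 4 branches: 14 chaperones and folding enzymes of the ER, 10 stress sensors and genes of ER-associated degradation (ERAD), 9 genes of ATF4 and its regulators and targets, and 11 enzymes of amino acid and one-carbon metabolism and tRNA ligases. Each symbol matched 1 of the 61541 gene identifiers in the files, and 42 of the 44 had enough reads to be tested among 12329 genes. The cells were labelled wild type, and all of them had been given doxorubicin, an anthracycline that damages DNA and drives cells into senescence, for 24 h and were then kept for at least 8 days. The 4 groups were cells on a soft gel with 250 nM, on plastic with 250 nM, on gel with 100 nM and on plastic with 100 nM, with 3 libraries of polyadenylated RNA in each. The gel is labelled 2 kPa; the labels call it a hydrogel in 1 place and a PDMS coating in another, and give the doses in nM in the titles and in µM in the protocol. The study asked how a substrate's stiffness bears on senescent fibroblasts. No library without the drug was analysed here, so each value compares substrates or doses among treated cells, and the labels do not say if replicates came from separate cultures, so p-values measure the spread between these libraries.

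Proteins that enter the secretory pathway fold in the ER, and unfolded protein there activates 3 sensors in its membrane: ATF6, IRE1 (gene ERN1) and PERK (gene EIF2AK3). ATF6 and the transcription factor XBP1, whose messenger RNA is spliced by IRE1, switch on chaperones and ERAD, which removes misfolded protein. PERK slows translation, which favours synthesis of the transcription factor ATF4; amino acid shortage and other stresses reach ATF4 through other kinases, and ATF4 switches on enzymes of serine, asparagine and one-carbon metabolism, tRNA ligases and regulators such as DDIT3 (CHOP). In fibroblasts this machinery serves the folding of collagens and other secreted matrix proteins.

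A library held 2229069 to 2730309 expected counts at 250 nM, against 5887056 to 7351916 at 100 nM. The names of the 250 nM files carry a mention of molecular identifiers that the 100 nM names lack, so dose and library set cannot be told apart. Replicate 1 of gel at 250 nM stood apart: across genes it correlated at a mean of 0.845 with the rest of its group, where the remaining 11 libraries had 0.895 to 0.958, and ribosomal protein genes took 8.21% of its counts against 3.32% to 5.83%. Of 10 fibroblast markers 10 were tested, led by FN1 at 6850 CPM (counts scaled to a common library total) over the 12 libraries. Of 10 leukocyte markers 0 were tested, the highest being FCER1G at 0.555 CPM and 4 being at 0 in every library; 1 of 8 endothelial genes passed the filter (TEK, 20.9 CPM) and 4 of 10 epithelial ones (KRT18 highest, 72.9 CPM). The summed endothelial markers ran from 10.1 to 30.7 CPM on gel and 31.4 to 43.9 on plastic at 250 nM, and from 7.56 to 14.5 on gel and 17.2 to 31.2 on plastic at 100 nM. Besides TEK, no endothelial gene had more than 14 counts in any library. The summed epithelial markers ran from 112 to 170 CPM on gel and 92.3 to 223 on plastic at 250 nM, and from 45.0 to 117 on gel and 57.9 to 116 on plastic at 100 nM. Besides KRT8, KRT18, KRT19 and CLDN4, no epithelial gene had more than 6 counts in any library. The part of the endothelial and epithelial markers in the results below was not tested.

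The promoters of several members hold the DNA elements that define the 2 arms of the response, and the windows shown here are those of members to which the results return. RefSeq promoter windows (GRCh38.p14, 250 bases before to 50 after the start) matched 37 of the 44 members. The ER stress element, CCAAT, any 9 bases and CCACG, is read by ATF6 with the factor NF-Y. Searched on both strands, it was found in 6 of 37 windows (16.2%), those of HSPA5, HSP90B1, CALR, CANX, CRELD2 and XBP1, and in 22 of 27305 windows of all genes (0.0806%). The related ERSE-II element, ATTGG, any base and CCACG, was in 3 (8.11%), HYOU1, SDF2L1 and HERPUD1, against 0.0549% of all windows. The XBP1-type element TGACGTGG was in 1 (2.7%), HYOU1, where it overlaps an ERSE-II match, against 0.795% of all windows. The same held for its shorter form TGACGTG, against 2% of all windows. The C/EBP-ATF response element, TGATG, any base and AA, is read by ATF4 with a C/EBP partner and was in 4 (10.8%), ASNS, CHAC1, AARS1 and HERPUD1, against 3.67% of all windows. A match describes letters in a window and is not evidence of binding. The members were chosen as genes of this response, so their shares beside those of all genes are not a test of the elements. Below, the 3 chaperone-branch windows carry the ER stress element in capitals (2 matches in HSP90B1), HERPUD1 carries both an ATF4-type match and, after it, an ERSE-II match in capitals, and CHAC1 and ASNS carry the ATF4-type match in capitals. They lie at chr9:125241294-125241593 (HSPA5, minus strand), chr12:103930160-103930459 (HSP90B1, plus), chr22:49918384-49918683 (CRELD2, plus), chr16:56931892-56932191 (HERPUD1, plus), chr15:40953221-40953520 (CHAC1, plus) and chr7:97872359-97872658 (ASNS, minus), each printed 5′ to 3′ on the strand of the gene.
HSPA5: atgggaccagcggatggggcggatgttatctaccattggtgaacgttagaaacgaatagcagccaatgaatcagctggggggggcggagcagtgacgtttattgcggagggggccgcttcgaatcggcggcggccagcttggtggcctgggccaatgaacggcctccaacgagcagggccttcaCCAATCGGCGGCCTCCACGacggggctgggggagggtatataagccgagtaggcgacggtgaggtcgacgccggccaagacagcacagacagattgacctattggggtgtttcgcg
HSP90B1: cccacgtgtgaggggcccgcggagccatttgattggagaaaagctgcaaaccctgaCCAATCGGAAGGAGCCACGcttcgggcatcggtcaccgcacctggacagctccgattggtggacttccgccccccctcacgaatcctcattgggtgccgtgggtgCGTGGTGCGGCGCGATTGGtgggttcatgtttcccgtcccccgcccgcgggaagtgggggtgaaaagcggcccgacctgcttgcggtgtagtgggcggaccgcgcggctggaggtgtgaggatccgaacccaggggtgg
CRELD2: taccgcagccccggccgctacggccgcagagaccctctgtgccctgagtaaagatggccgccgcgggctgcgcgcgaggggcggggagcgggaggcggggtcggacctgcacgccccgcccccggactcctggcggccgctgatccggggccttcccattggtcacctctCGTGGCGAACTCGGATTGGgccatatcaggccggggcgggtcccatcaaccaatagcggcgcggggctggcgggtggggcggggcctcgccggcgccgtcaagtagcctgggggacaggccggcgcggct
HERPUD1: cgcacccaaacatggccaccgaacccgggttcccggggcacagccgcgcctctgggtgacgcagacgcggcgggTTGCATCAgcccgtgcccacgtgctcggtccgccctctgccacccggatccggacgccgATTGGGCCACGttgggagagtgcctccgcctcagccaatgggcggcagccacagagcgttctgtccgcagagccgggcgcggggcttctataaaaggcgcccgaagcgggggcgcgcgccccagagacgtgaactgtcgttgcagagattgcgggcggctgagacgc
CHAC1: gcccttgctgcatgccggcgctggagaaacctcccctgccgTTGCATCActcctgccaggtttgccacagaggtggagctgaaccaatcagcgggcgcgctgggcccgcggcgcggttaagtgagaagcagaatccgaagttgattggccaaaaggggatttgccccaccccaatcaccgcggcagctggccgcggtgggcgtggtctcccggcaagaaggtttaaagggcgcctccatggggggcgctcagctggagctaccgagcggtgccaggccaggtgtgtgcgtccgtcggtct
ASNS: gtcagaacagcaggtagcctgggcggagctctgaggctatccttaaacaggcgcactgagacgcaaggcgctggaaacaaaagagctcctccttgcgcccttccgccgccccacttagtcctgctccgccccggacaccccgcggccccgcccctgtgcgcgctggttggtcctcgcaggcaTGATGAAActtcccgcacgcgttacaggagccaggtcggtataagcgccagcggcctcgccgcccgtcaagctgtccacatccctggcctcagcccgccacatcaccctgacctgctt

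Per length, in TPM (a length-scaled share of transcripts, as deposited), chaperones made up most of the members' RNA in all 4 groups. Their 14 genes summed to 993 ± 165 TPM on gel and 1346 ± 37.6 on plastic at 250 nM, and to 1560 ± 37.4 on gel and 1691 ± 65.9 on plastic at 100 nM (SD, n = 3 each), with HSP90B1, the ER member of the HSP90 family, giving 23.7% of the branch. The 10 sensor and ERAD genes summed to 149 ± 18.3 TPM on gel and 170 ± 9.20 on plastic at 250 nM, and to 144 ± 8.90 on gel and 170 ± 25.1 on plastic at 100 nM, led by HERPUD1. The 9 ATF4 regulators summed to 238 ± 48.2 and 220 ± 68.1 TPM on gel and plastic at 250 nM, and to 163 ± 17.3 and 191 ± 76.9 at 100 nM, with ATF4 itself giving 51.1%. The 11 amino acid and tRNA genes summed to 229 ± 28.9 and 242 ± 63.9 TPM on gel and plastic at 250 nM, and to 189 ± 21.5 and 283 ± 108 at 100 nM, led by the glycyl-tRNA ligase GARS1 with 25.8%. Within the plastic groups the summed ATF4 and amino acid branches had the widest spread. DERL3, a member of the derlin family of ERAD, was at 0 in 11 of 12 libraries and at 0.469 CPM in replicate 2 of plastic at 250 nM, and NUPR1, a stress-induced chromatin protein, ran from 0 to 4.30 CPM; these 2 were not tested. The tested members were more abundant than most genes, with a median of their mean levels of 37.8 CPM against 15.5 over all 12329.

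**Figure D1:**
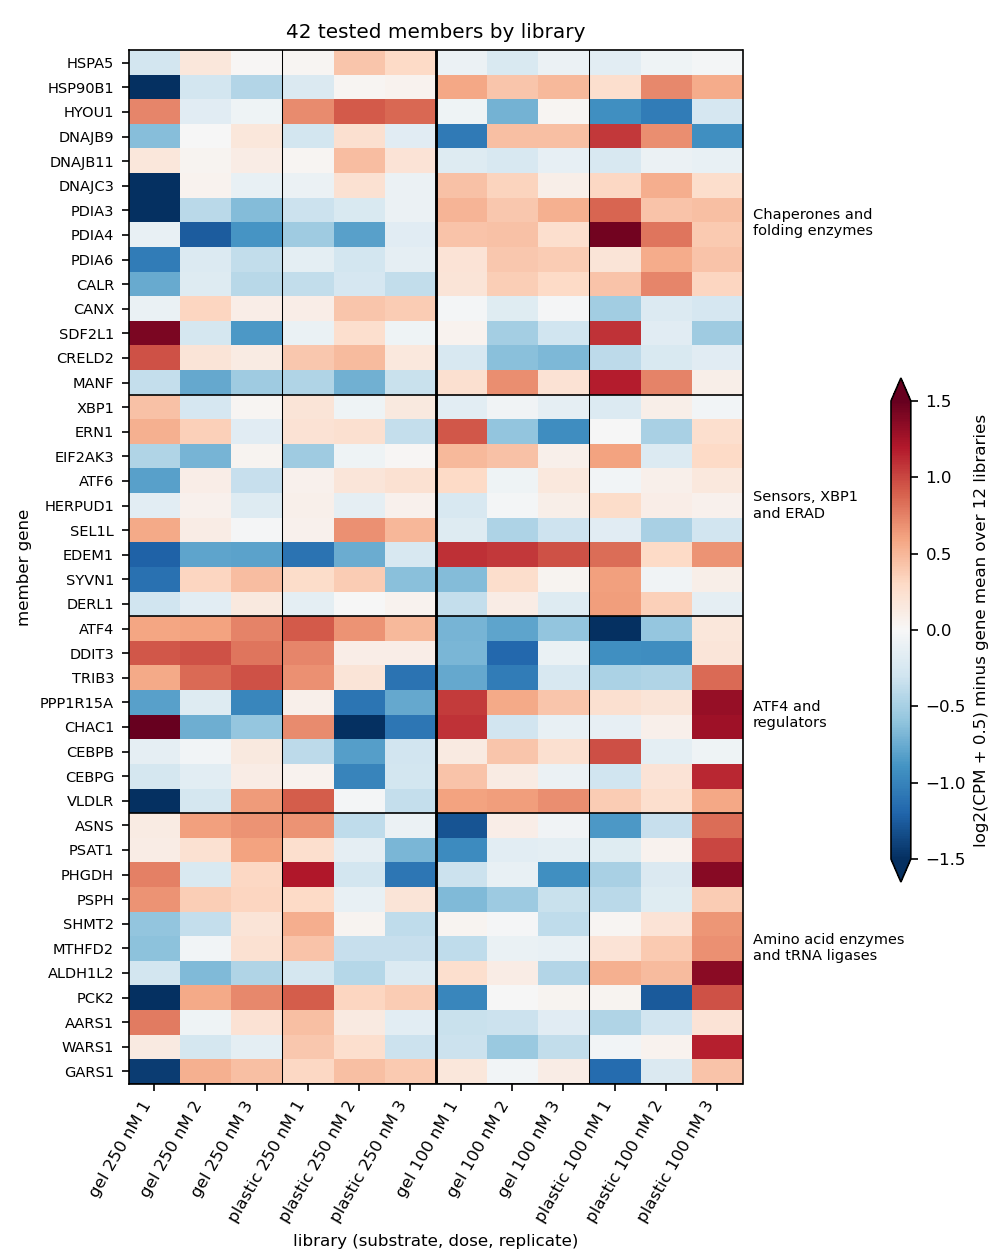
Heat map of the 42 tested members (rows, by branch) in the 12 libraries (columns, gel left of plastic within each dose). Colour gives log2(CPM + 0.5) minus the gene's mean over the libraries; replicate 3 of plastic at 100 nM is dark red for PPP1R15A, CHAC1, PHGDH and ALDH1L2 and pale for ATF4, DDIT3 and CEBPB, and replicate 1 of gel at 250 nM is blue for HSP90B1, DNAJC3 and PDIA3.

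Between gel and plastic, no member passed the test. At 250 nM 0 of 42 were called, where 0.00811% of all genes were (1 of 12329, edgeR quasi-likelihood with Benjamini-Hochberg adjustment under 0.05), and the lowest adjusted p of a member was 0.442. At 100 nM 0 of 42 were called against 0.219% of all genes, with a lowest adjusted p of 0.306. Over both doses it was 0 of 42 against 0.795%, with a lowest adjusted p of 0.268, and for the gel difference at 250 nM minus that at 100 nM 0 of 42 against 0% (0.755). At an unadjusted p under 0.05, 2 members were lower on gel at 250 nM (9.93% of all genes, in either direction), 4 at 100 nM (9.86%) and 2 over both doses (12.4%), and 3 differed between doses in their gel difference (6.25%). The 3 gel libraries and the 3 plastic ones did not overlap in 5 of 42 members at 250 nM (15.1% of all genes) and in 6 of 42 at 100 nM (19.0%). Each of these shares is close to or below that of all genes. In bulk RNA, fewer cells of a kind and less RNA per cell cannot be told apart.

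The signs were less even than the calls. Fitted log2 changes were negative, lower on gel, in 28 of 42 members at 250 nM (median -0.10), 33 of 42 at 100 nM (median -0.19) and 35 of 42 over both doses (median -0.14), beside medians of -0.02, -0.01 and 0.00 over all genes. Without replicate 3 of plastic at 100 nM the count at 100 nM was 26 of 42, with a median of -0.05. Members of a pathway move together, so these signs are not independent and were not tested as a list.

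**Figure D2:**
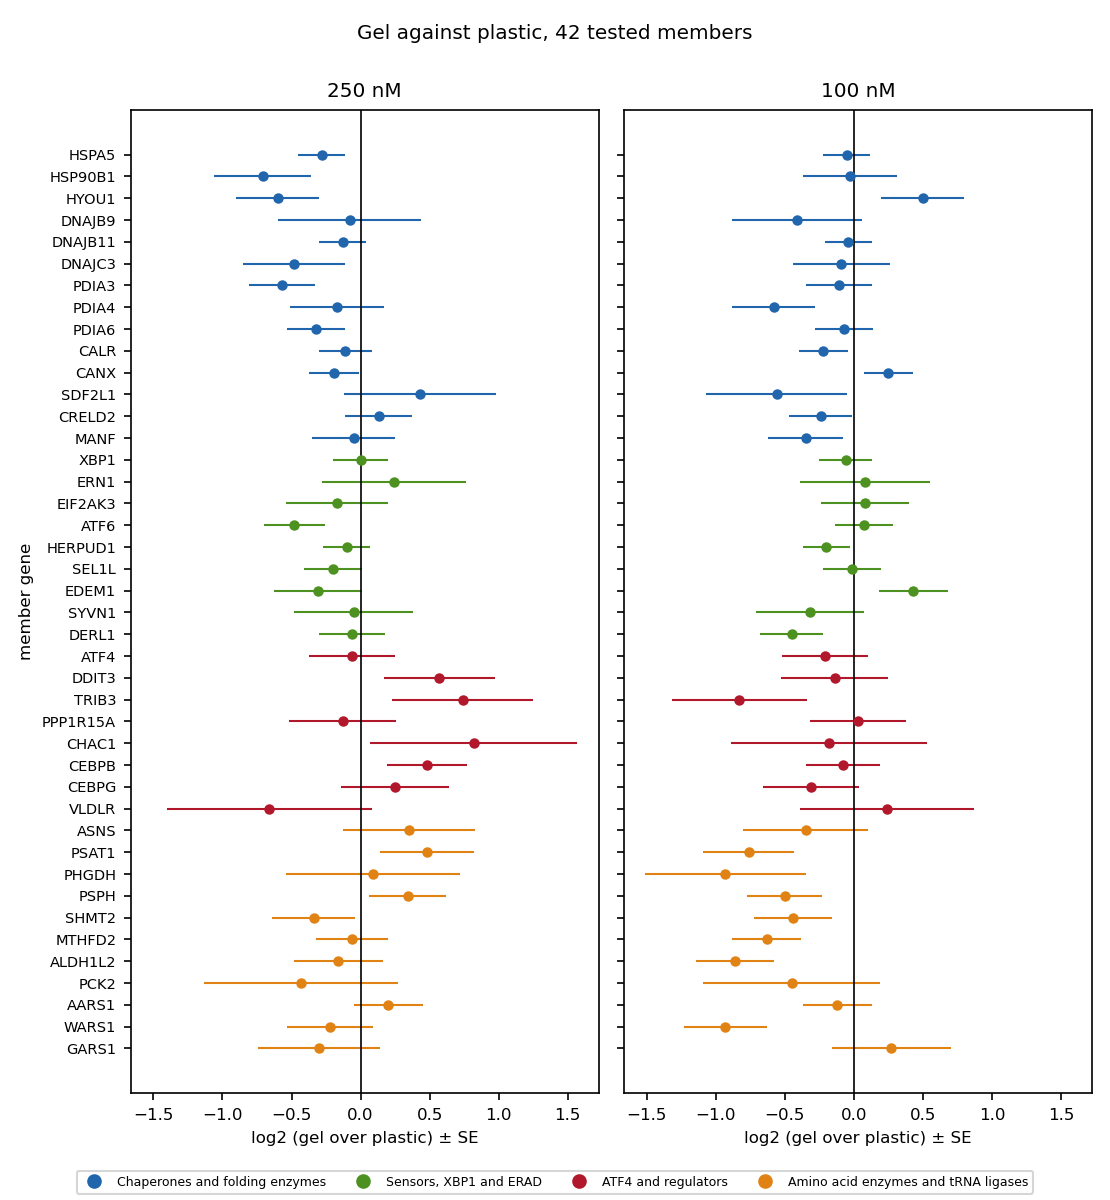
Fitted log2 change of gel over plastic for the 42 tested members at 250 nM (left) and 100 nM (right), coloured by branch; bars are the standard error of the edgeR fit. Chaperones lie mostly left of 0 in both panels, and of the amino acid and tRNA genes 6 of 11 lie left of 0 at 250 nM and 10 of 11 at 100 nM.

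Among chaperones, 13 of 14 were negative over both doses, with a median log2 change of -0.18. The exception was CANX, the membrane lectin calnexin, at 0.03. These signs include replicate 1 of gel at 250 nM, the library that stood apart. It was the lowest of the 6 libraries at its dose in 8 of 14 chaperones (57.1%, beside 34.9% of all genes). In 3 of 14 it was the highest (21.4%, beside 29.5%). HSPA5 is BiP, the main ER chaperone and the usual read-out of the response. It stood at 752, 1019 and 923 CPM on gel and 929, 1213 and 1120 on plastic at 250 nM (replicates 1, 2 and 3, in that order here and below), and at 853, 775 and 856 on gel and 813, 865 and 890 on plastic at 100 nM. Its groups overlapped at both doses, and its log2 change was -0.28 ± 0.17 (SE) at 250 nM and -0.05 ± 0.17 at 100 nM (adjusted p = 0.635 and 0.958). HSP90B1 had 104, 384 and 345 CPM on gel and 399, 476 and 482 on plastic at 250 nM, and 698, 622 and 654 on gel and 553, 771 and 686 on plastic at 100 nM. At 250 nM all 3 gel libraries lay below all 3 plastic ones, with replicate 1 of gel far below the rest (log2 change -0.71 ± 0.35, adjusted p = 0.523). PDIA3, a disulfide isomerase that works with calnexin on glycoproteins, had 87.6, 190 and 160 CPM on gel and 200, 214 and 236 on plastic at 250 nM, and 358, 334 and 363 on gel and 459, 338 and 344 on plastic at 100 nM. It had the lowest unadjusted p of the chaperones at 250 nM (0.0342, adjusted p = 0.442), where its log2 change was -0.57 ± 0.24, and -0.32 without replicate 1 of gel. The low value of that library in HSP90B1 and PDIA3 stands beside its low correlation with its group given above.

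The disulfide isomerase PDIA4 had 24.1, 10.7 and 13.9 CPM on gel and 17.8, 14.6 and 23.2 on plastic at 250 nM, and 35.2, 35.5 and 31.1 on gel and 71.7, 46.0 and 34.4 on plastic at 100 nM. PDIA6, another isomerase, had 136, 245 and 217 CPM on gel and 254, 233 and 257 on plastic at 250 nM, and 325, 373 and 365 on gel and 323, 412 and 380 on plastic at 100 nM. Both overlapped between substrates at both doses, and their log2 changes on gel over both doses were -0.38 ± 0.23 and -0.19 ± 0.15. Calreticulin, CALR, the soluble partner of calnexin, had 148, 218 and 188 CPM on gel and 193, 210 and 194 on plastic at 250 nM, and 287, 323 and 307 on gel and 337, 417 and 314 on plastic at 100 nM. For CANX the values were 511, 683 and 586 CPM on gel and 588, 730 and 710 on plastic at 250 nM, and 534, 481 and 540 on gel and 381, 472 and 457 on plastic at 100 nM. CANX was the sole chaperone whose substrates did not overlap at 100 nM, all 3 gel libraries being the higher (log2 change 0.25 ± 0.18, adjusted p = 0.696). MANF, a secreted factor that stabilises BiP complexes, had 18.2, 13.6 and 16.0 CPM on gel and 17.0, 14.1 and 18.5 on plastic at 250 nM, and 27.8, 38.2 and 27.2 on gel and 53.8, 39.6 and 25.0 on plastic at 100 nM. CRELD2, an ER protein induced by stress, had 82, 48.1 and 45.9 CPM on gel and 55.9, 58.7 and 47.1 on plastic at 250 nM, and 35.6, 27.1 and 26.2 on gel and 31.9, 35.8 and 37.4 on plastic at 100 nM. In both genes the substrates overlapped at each dose. DNAJB9, DNAJB11, DNAJC3 and SDF2L1, co-chaperones of BiP, had log2 changes over both doses from -0.28 to -0.06 and adjusted p from 0.718 to 0.969. HYOU1, described further under dose because its counts are uncertain, overlapped between substrates at both doses, with log2 changes of -0.60 ± 0.30 at 250 nM and 0.50 ± 0.30 at 100 nM (adjusted p = 0.539 and 0.62). The difference between them, -1.10 ± 0.43, had an unadjusted p of 0.0222 (adjusted p = 0.755).

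No sensor or ERAD gene was called by substrate, and 7 of 9 tested members were negative over both doses, with a median of -0.10. XBP1 had 89.2, 54.9 and 67.0 CPM on gel and 75.3, 62.9 and 72.7 on plastic at 250 nM, and 59.0, 63.2 and 59.7 on gel and 56.7, 69.5 and 63.8 on plastic at 100 nM. Gene counts do not part its spliced from its unspliced form. HERPUD1, an ERAD scaffold with both element types in its promoter, had 66.4, 77.2 and 64.9 CPM on gel and 78.2, 67.6 and 77.4 on plastic at 250 nM, and 62.6, 72.7 and 78.7 on gel and 89.4, 79.5 and 77.6 on plastic at 100 nM. Both genes overlapped between substrates at each dose, with log2 changes over both doses of -0.03 ± 0.14 and -0.15 ± 0.12. ATF6 had 30.1, 56.8 and 41.7 CPM on gel and 55.5, 60.1 and 62.4 on plastic at 250 nM, and 65.3, 50.7 and 59.2 on gel and 51.4, 56.1 and 59.2 on plastic at 100 nM. At 250 nM its unadjusted p was 0.0498 (adjusted p = 0.503), with a log2 change of -0.48 ± 0.22, and -0.29 without replicate 1 of gel. DERL1, a derlin of the ERAD channel, had 26.8, 29.6 and 36.7 CPM on gel and 29.8, 32.9 and 34.2 on plastic at 250 nM, and 25.8, 35.7 and 28.8 on gel and 51.1, 42.3 and 30.1 on plastic at 100 nM. SEL1L, the adaptor of the ERAD ubiquitin ligase, had 247, 180 and 164 CPM on gel and 175, 268 and 236 on plastic at 250 nM, and 146, 121 and 134 on gel and 148, 119 and 136 on plastic at 100 nM. EDEM1, which hands misfolded glycoproteins to ERAD, had 4.96, 6.80 and 6.74 CPM on gel and 5.38, 7.04 and 10.2 on plastic at 250 nM, and 26.5, 25.8 and 23.9 on gel and 22.0, 15.0 and 19.6 on plastic at 100 nM. Its 3 gel libraries lay above the 3 plastic ones at 100 nM (log2 change 0.43 ± 0.25, adjusted p = 0.608). The sensors ERN1 and EIF2AK3 and the ubiquitin ligase SYVN1 had log2 changes over both doses of 0.16 ± 0.35, -0.05 ± 0.25 and -0.19 ± 0.29.

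Among ATF4 and its regulators 5 of 8 tested members were negative over both doses, with a median of -0.04, and libraries of 1 group were often far apart. ATF4, the transcription factor itself, had 195, 196 and 217 CPM on gel and 244, 206 and 181 on plastic at 250 nM, and 79.1, 74.4 and 85.4 on gel and 44.4, 86.3 and 145 on plastic at 100 nM. The log2 change of gel over plastic was -0.06 ± 0.31 at 250 nM and -0.21 ± 0.31 at 100 nM (adjusted p = 0.971 and 0.878), and the plastic libraries at 100 nM spread over a 50.5 CPM SD while the gel ones had 5.54. DDIT3, the CHOP transcription factor, had 17.2, 17.5 and 15.6 CPM on gel and 14.9, 9.39 and 9.43 on plastic at 250 nM, and 5.26, 3.57 and 8.13 on gel and 4.40, 4.34 and 9.97 on plastic at 100 nM. At 250 nM its 3 gel libraries lay above the 3 plastic ones (log2 change 0.57 ± 0.40, adjusted p = 0.674). TRIB3, a pseudokinase induced by ATF4 and CHOP, had 9.91, 12.1 and 13.1 CPM on gel and 10.8, 7.51 and 2.75 on plastic at 250 nM, and 3.63, 2.89 and 5.42 on gel and 4.54, 4.65 and 12.2 on plastic at 100 nM. Its log2 change was 0.74 ± 0.51 at 250 nM and -0.83 ± 0.49 at 100 nM; the difference, 1.57 ± 0.71, had an unadjusted p of 0.0434 (adjusted p = 0.755) and was 0.94 without replicate 3 of plastic at 100 nM. CHAC1, an enzyme that degrades glutathione, had 119, 24.3 and 27.0 CPM on gel and 66.6, 11.7 and 18.9 on plastic at 250 nM, and 87.1, 33.3 and 37.6 on gel and 37.4, 42.8 and 99.0 on plastic at 100 nM. In each of the 4 groups 1 library was far above the other 2, so the spread within groups was wider than any difference between them. PPP1R15A (GADD34), which reverses the PERK-driven block of translation, had 19.5, 30.1 and 17.3 CPM on gel and 36.4, 16.0 and 20.0 on plastic at 250 nM, and 72.0, 51.5 and 46.2 on gel and 41.0, 39.5 and 86.1 on plastic at 100 nM. The C/EBP factors CEBPB and CEBPG and the lipoprotein receptor VLDLR had log2 changes over both doses of 0.20 ± 0.20, -0.03 ± 0.26 and -0.21 ± 0.48; VLDLR was at 0 in replicate 1 of gel at 250 nM.

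**Figure D3:**
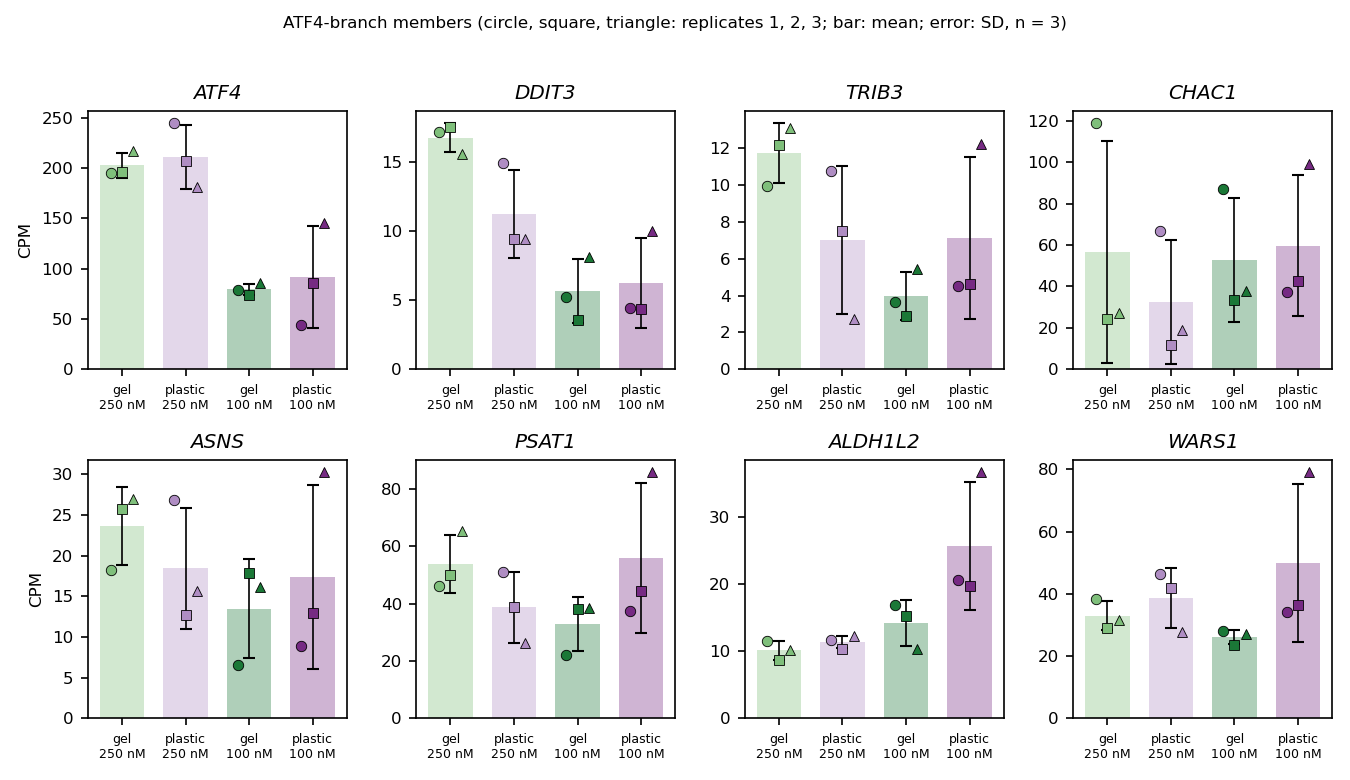
CPM of 8 members of the ATF4 branch in every library, by group, with the mean (bar) and SD (error bar, n = 3). Replicate 3 of plastic at 100 nM (triangle) is the highest of its group in all 8 genes, at 145 CPM for ATF4 and 79.0 for WARS1, while ATF4 at 250 nM lies at 181 CPM or more in all 6 libraries.

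The amino acid and tRNA genes had a median log2 change of gel over plastic of -0.50 at 100 nM, with 10 of 11 negative, while at 250 nM 6 of 11 were negative with a median of -0.06. ASNS, asparagine synthetase, a standard ATF4 target, had 18.2, 25.7 and 27.0 CPM on gel and 26.9, 12.7 and 15.7 on plastic at 250 nM, and 6.53, 17.9 and 16.1 on gel and 8.94, 13 and 30.2 on plastic at 100 nM. PSAT1, the transaminase of serine synthesis, had 46.3, 50.0 and 65.3 CPM on gel and 50.9, 39.0 and 26.3 on plastic at 250 nM, and 21.9, 38.1 and 38.5 on gel and 37.5, 44.3 and 85.8 on plastic at 100 nM. Its log2 change was 0.48 ± 0.34 at 250 nM and -0.76 ± 0.33 at 100 nM (unadjusted p = 0.0364 and adjusted p = 0.476 at 100 nM); the difference between them, 1.24 ± 0.47, had an unadjusted p of 0.0207 (adjusted p = 0.755). PSPH, the phosphatase that ends serine synthesis, had 20.5, 16.5 and 16.0 CPM on gel and 15.7, 11.7 and 14.5 on plastic at 250 nM, and 7.80, 8.52 and 9.98 on gel and 9.47, 11.2 and 16.6 on plastic at 100 nM. At 250 nM its 3 gel libraries were the higher and at 100 nM the groups overlapped. WARS1, the tryptophanyl-tRNA ligase, had 38.3, 29.1 and 31.6 CPM on gel and 46.4, 41.8 and 27.9 on plastic at 250 nM, and 27.9, 23.6 and 26.9 on gel and 34.0, 36.4 and 79.0 on plastic at 100 nM. ALDH1L2, the mitochondrial formyltetrahydrofolate dehydrogenase, had 11.6, 8.74 and 10.1 CPM on gel and 11.6, 10.3 and 12.2 on plastic at 250 nM, and 16.9, 15.3 and 10.3 on gel and 20.6, 19.7 and 36.6 on plastic at 100 nM. These 2 genes had the lowest p of all members at 100 nM, with no overlap between substrates and log2 changes of -0.93 ± 0.30 and -0.86 ± 0.28 (adjusted p = 0.306 and 0.319). Leaving out replicate 3 of plastic at 100 nM gave -0.43 and -0.51 (adjusted p = 0.515 and 0.49). MTHFD2, the mitochondrial folate dehydrogenase, also did not overlap at 100 nM, at -0.63 ± 0.25 (adjusted p = 0.442). The other 5, PHGDH, SHMT2, PCK2, AARS1 and GARS1, had adjusted p from 0.642 to 0.917 at 100 nM.

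In the ATF4 and amino acid branches the substrate values at 100 nM depended in part on replicate 3 of plastic, more in the regulators than in the amino acid genes. It was the highest of its 3 libraries in 18 of the 19 tested ATF4 and amino acid members (94.7%) and the highest of the 6 at its dose in 17 of 19 (89.5%), beside 35.8% and 15.0% of all genes. CEBPB, at 72.7 CPM in replicate 1 and 35.3 in replicate 3, was the exception within its group. The median member stood 0.84 log2 units above its mean at that dose there, and 0.02 over all genes. With that library, the 19 members had a median log2 change of gel over plastic at 100 nM of -0.35, 16 of 19 negative; without it the median was 0.09 with 9 of 19 negative. For the 11 amino acid genes the median was -0.23 without it in place of -0.50, and 7 of 11 stayed negative. For the 8 tested regulators it was 0.31 in place of -0.16. For chaperones the library made little difference, with medians of -0.16 without it and -0.10 with it. The median difference between doses in the 19 members' gel change was 0.57 log2 units with the library and 0.16 without it. At 250 nM, replicate 1 of plastic was the highest of its 3 in 16 of 19 of the same members (84.2%, beside 38.2% of all genes). Libraries thus differed within a group in the whole branch at once, and what set them apart was not tested.

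Between doses, members differed more, in a comparison where dose and library set cannot be told apart. On gel 12 of 42 members were called at 250 against 100 nM (28.6%, where 13.8% of all genes were), and on plastic 9 of 42 (21.4%, where 8.61% of all genes were; edgeR quasi-likelihood, adjusted p under 0.05). On gel 4 were higher at 250 nM (6.92% of all genes were) and 8 lower (6.89%); on plastic 4 were higher (4.09%) and 5 lower (4.52%). Called on both substrates were 5 of 42, beside 4.79% of all genes: ATF4 was higher at 250 nM and PDIA4, CALR, MANF and EDEM1 were lower. The 2 comparisons share no library. Of the 42 members 31 had the same sign on both substrates (73.8%), beside 72.7% of all genes. The counts rested on single libraries. On gel the 12 calls were 7 once replicate 3 of gel at 250 nM was left out, 2 once replicate 2 of gel at 100 nM was, and 5 once replicate 1 or 3 of that group was. On plastic the 9 calls were 0 once replicate 2 of plastic at 250 nM was left out, 1 once its replicate 3 was, and 5 once replicate 1 or 2 of plastic at 100 nM was. They were 14 once replicate 1 of gel at 250 nM was left out, a library that enters this fit through the shared spread. Called in all 20 settings were 2 members on gel, EDEM1 and PDIA3, and 0 on plastic.

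**Figure D4:**
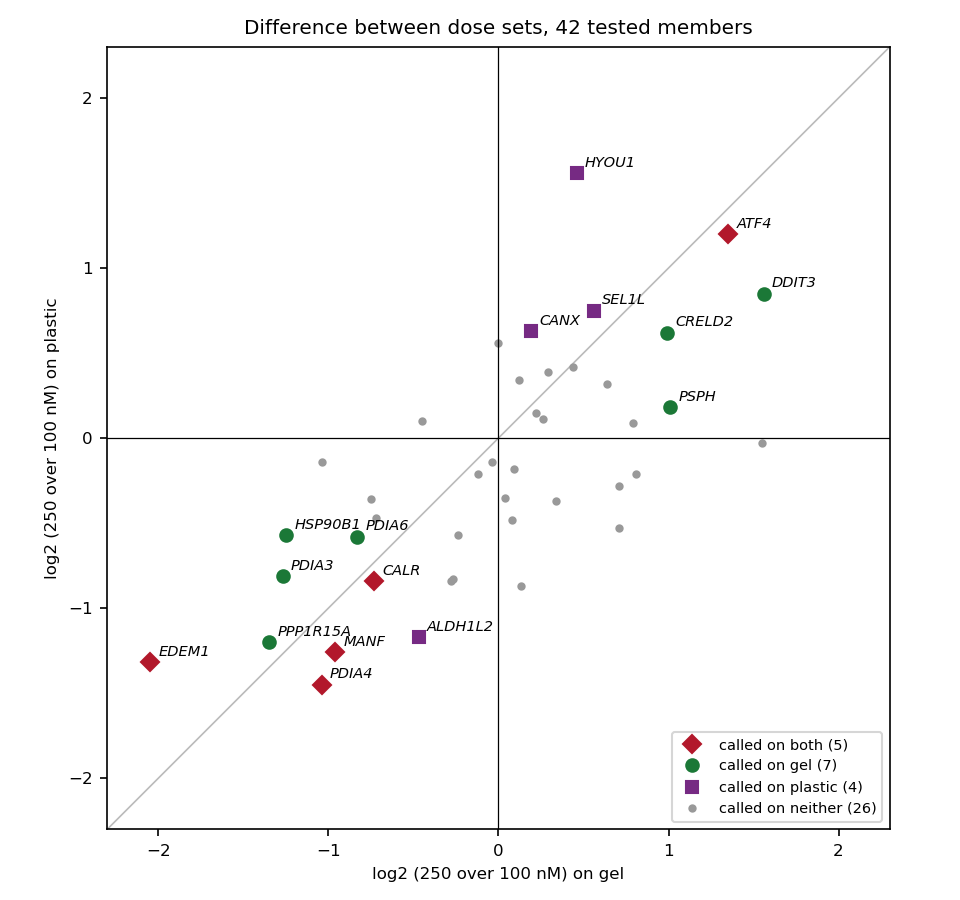
Fitted log2 change of 250 over 100 nM on gel (x axis) and on plastic (y axis) for the 42 tested members, with the 16 called on either substrate labelled and the grey line marking equal change. ATF4 lies at the upper right, at 1.35 and 1.20, and EDEM1 at the lower left, at -2.05 and -1.32; HYOU1 is discussed as uncertain.

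Chaperones parted in direction. On gel 7 of 14 were called (50.0%, beside 13.8% of all genes), 1 higher and 6 lower. On plastic 5 of 14 were (35.7%, beside 8.61%), 2 higher and 3 lower. The median log2 changes were -0.49 on gel and -0.46 on plastic, beside -0.02 and -0.03 over all genes. HSPA5 was not called: it averaged 898 ± 135 CPM at 250 nM and 828 ± 45.6 at 100 nM on gel, and 1090 ± 145 and 856 ± 39.3 on plastic (SD, n = 3 each; adjusted p = 0.681 and 0.228). The 3 isomerases among the members, PDIA3, PDIA4 and PDIA6, were all called lower on gel. Related genes outside the members did not all follow, ERP29 being called higher on both substrates. PDIA3 was 2.41-fold lower at 250 nM on gel (log2 change -1.27 ± 0.25, adjusted p = 0.00739) and 1.75-fold lower on plastic (adjusted p = 0.0542). PDIA4 was 2.06-fold lower on gel (adjusted p = 0.0474) and 2.73-fold lower on plastic (0.0166). On TPM its log2 changes were -1.05 on gel and -0.82 on plastic (adjusted p = 0.0563 and 0.148). PDIA6 was 1.78-fold lower on gel (0.021) with 1.50-fold on plastic (0.0939). CALR fell 1.66-fold on gel and 1.79-fold on plastic (adjusted p = 0.0219 and 0.0163), and MANF 1.94-fold and 2.39-fold (0.0389 and 0.0179). Of the 20 settings run, the calls on gel held in 8 for PDIA4 and 9 for MANF. HSP90B1 fell 2.37-fold on gel (log2 change -1.25 ± 0.35, adjusted p = 0.0312), and its log2 change was -0.88 without replicate 1 of gel at 250 nM (adjusted p = 0.00987). On plastic it stood at 453 ± 46.3 CPM at 250 nM and 670 ± 110 at 100 nM (adjusted p = 0.322). CRELD2 went the other way, 1.99-fold higher on gel (log2 change 0.99 ± 0.24, adjusted p = 0.0169), and 0.64 on the log2 scale without replicate 1 of gel at 250 nM (adjusted p = 0.0509). CANX was 1.55-fold higher on plastic (adjusted p = 0.0422, and above 0.05 in 11 of the 19 other settings). Of the 6 members with an ER stress element in their window, HSPA5 and XBP1 were not called. HSP90B1 was called lower on gel and CALR lower on both substrates, while CRELD2 was called higher on gel and CANX higher on plastic. Whether the element goes with direction was not tested.

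**Figure D5:**
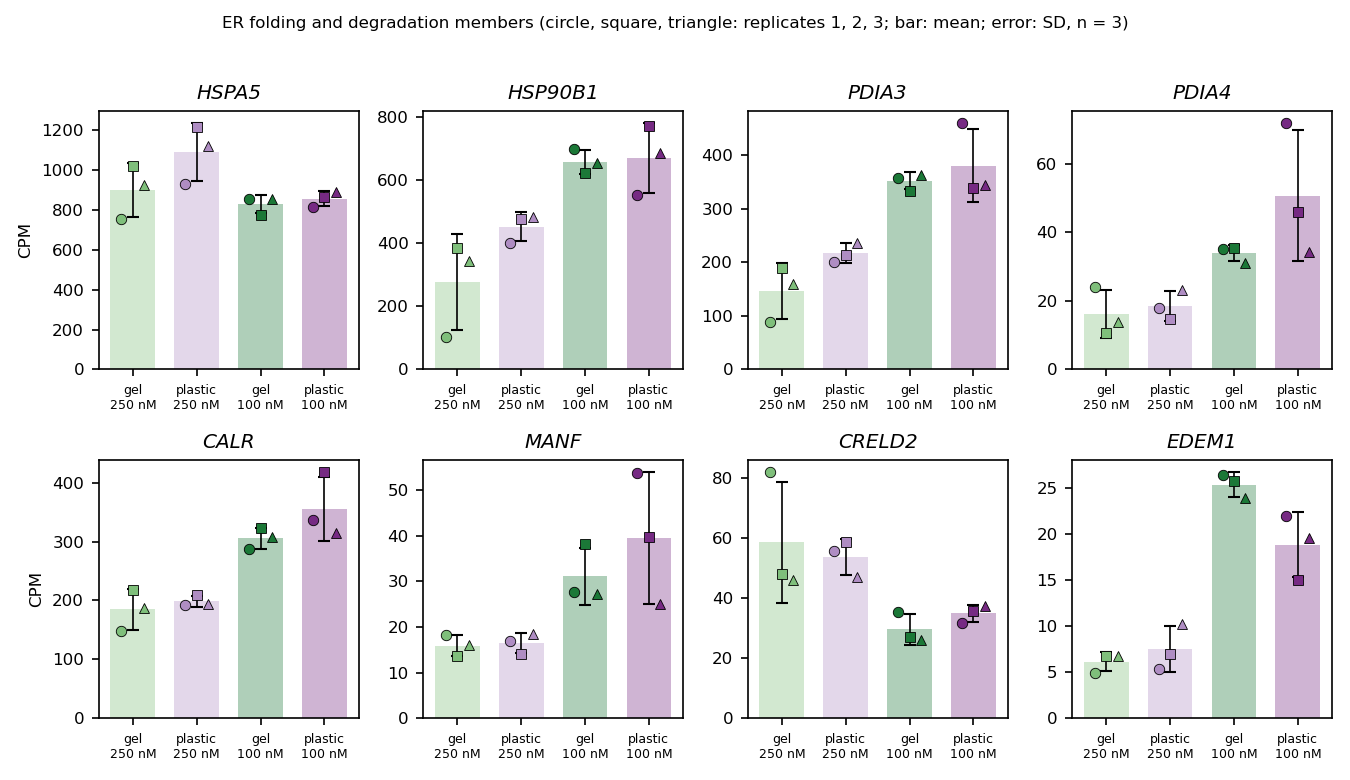
CPM of 8 ER folding and degradation members in every library, by group, with the mean (bar) and SD (error bar, n = 3). EDEM1, PDIA3 and CALR lie lower in all 250 nM libraries than in any 100 nM library, HSPA5 overlaps between doses on gel, and CRELD2 lies higher at 250 nM.

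Of the sensor and ERAD genes, EDEM1 differed most. It averaged 6.17 ± 1.05 CPM at 250 nM and 25.4 ± 1.32 at 100 nM on gel, 4.15-fold lower (log2 change -2.05 ± 0.29, adjusted p = 0.00273), and 7.54 ± 2.45 and 18.9 ± 3.56 on plastic, 2.49-fold lower (adjusted p = 0.0143). No 250 nM library reached any 100 nM library. On TPM its log2 changes were -1.47 on gel and -1.0 on plastic (adjusted p = 0.00608 and 0.0263). EDEM1 (ENSG00000134109) lies on chromosome 3 at 5187646 to 5219957 (GENCODE 29, GRCh38). SEL1L was 1.68-fold higher on plastic (adjusted p = 0.0428) and 1.48-fold on gel (0.0878), and its call on plastic was lost in 11 of the 19 other settings. The other members of the branch were not called, with XBP1 at 0.22 ± 0.20 and 0.15 ± 0.20 and HERPUD1 at -0.04 ± 0.17 and -0.14 ± 0.17 on gel and plastic.

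ATF4 messenger RNA was higher at 250 nM on both substrates. It averaged 203 ± 12.4 CPM at 250 nM and 79.6 ± 5.54 at 100 nM on gel, 2.55-fold higher (log2 change 1.35 ± 0.31, adjusted p = 0.0149), and 211 ± 31.6 and 91.9 ± 50.5 on plastic, 2.29-fold higher (1.20 ± 0.31, adjusted p = 0.0308). Leaving out the highest plastic library at 100 nM, replicate 3, gave a log2 change of 1.70 on plastic (adjusted p = 0.00939). The call held in 18 of 20 settings on gel, being lost once replicate 1 or 2 of gel at 100 nM was left out (highest adjusted p = 0.0541). On plastic it held in 15 of 20, being lost on the 2 groups alone and once replicate 2 of plastic at 100 nM or any replicate of plastic at 250 nM was left out (highest adjusted p = 0.111). ATF4 (ENSG00000128272) lies on chromosome 22 at 39519695 to 39522685. Its protein is set largely by translation, which these data do not measure. DDIT3 was 2.95-fold higher on gel (log2 change 1.56 ± 0.40, adjusted p = 0.0216) and 1.81-fold on plastic (adjusted p = 0.198). DDIT3 shares exon bases with MARS and MBD6 on the opposite strand, MARS holding 1186 counts at 100 nM against 236 of DDIT3. The counts of DDIT3 are thus uncertain, as the strand used in counting is not given. The same limit holds for ALDH1L2, named below, which shares 145 exon bases with C12orf45 on the opposite strand. C12orf45 had 276 counts at 100 nM against 788 of ALDH1L2. Several tested members that were not called also share exon bases with opposite-strand genes. The neighbours with the most reads relative to the member were those of DNAJB9 and SYVN1. In EIF2AK3, WARS1 and DERL1 the largest such neighbour held 11.37% to 15.42% of the member's reads. SYVN1 also shares 398 exon bases with FAU on its own strand, which held 3039.5% of its reads, a limit apart from the strand setting. PPP1R15A went down, 2.55-fold on gel (log2 change -1.35 ± 0.37, adjusted p = 0.0294) and 2.29-fold on plastic (adjusted p = 0.0595). TRIB3 was 2.92-fold higher on gel (adjusted p = 0.0548) and stood at 7.01 ± 4.03 CPM at 250 nM and 7.12 ± 4.39 at 100 nM on plastic (0.983). CHAC1, CEBPB, CEBPG and VLDLR were not called on either substrate. The enzymes mostly stayed below the threshold: PSPH was 2.02-fold higher on gel (log2 change 1.01 ± 0.28, adjusted p = 0.0285), ALDH1L2 was 2.24-fold lower on plastic (-1.17 ± 0.30, adjusted p = 0.0308; -0.81 and 0.113 without replicate 3 of plastic at 100 nM), and the other 9 were not called. ASNS averaged 23.6 ± 4.76 CPM at 250 nM and 13.5 ± 6.10 at 100 nM on gel (adjusted p = 0.262), and 18.4 ± 7.49 and 17.4 ± 11.3 on plastic (0.927). PSAT1 averaged 53.9 ± 10.1 CPM at 250 nM and 32.8 ± 9.44 at 100 nM on gel (adjusted p = 0.165), and 38.7 ± 12.3 and 55.9 ± 26.2 on plastic (0.347). On gel the doses did not overlap in TRIB3, ASNS or PSAT1, nor in 4416 of all 12329 genes. The nearest ASNS libraries stood at 18.2 CPM at 250 nM and 17.9 at 100 nM. ASNS was 1.73-fold and PSAT1 1.63-fold higher at 250 nM without passing the test.

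HYOU1, an ER chaperone of the HSP110 family, needs a separate account, since its direction differed between counts and TPM and it overlaps an antisense gene. It had 41.3, 21.9 and 23.6 CPM on gel and 40.6, 46.9 and 45.2 on plastic at 250 nM, and 23.6, 14.8 and 25.1 on gel and 12.8, 11.6 and 20.6 on plastic at 100 nM. By counts it was 2.95-fold higher at 250 nM on plastic (log2 change 1.56 ± 0.31, adjusted p = 0.0104) and 1.38-fold on gel (adjusted p = 0.316). AP003392.3, an antisense gene that shares 666 exon bases with HYOU1, had 143 to 243 counts in each 100 nM library and 0 in all 6 libraries at 250 nM. Summed with it, HYOU1 stood at 44.2 ± 3.29 CPM at 250 nM and 47.9 ± 3.77 at 100 nM on plastic, where the libraries overlapped. On gel the sum was 28.9 ± 10.8 at 250 nM and 48.6 ± 8.88 at 100 nM. The doses barely parted there, the nearest libraries being 41.3 CPM at 250 nM and 41.7 at 100 nM. The transcript length that RSEM gave HYOU1 ran from 1473 to 2847 bases at 250 nM and from 598 to 945 at 100 nM. On log2(TPM + 1) its change was -0.21 on plastic (adjusted p = 0.769) and -1.33 on gel (adjusted p = 0.0348). How reads were assigned between the 2 genes was not tested, so the rise of HYOU1 on plastic is reported as uncertain; the higher calls on plastic without it were ATF4, CANX and SEL1L. Of antisense genes with at least 10 counts in every 100 nM library, 5 of 192 were at 0 in all 250 nM libraries (2.60%), against 2 of 9901 protein-coding genes (0.0202%). Antisense genes together took 0.62% to 0.762% of antisense and protein-coding counts at 250 nM. At 100 nM they took 0.668% to 1.04%, so the ranges overlapped. Among the other members, AC092069.1, antisense to CALR, had 5 counts over the 250 nM libraries and 308 over the 100 nM ones, where CALR had 2749 and 13287, and AL157871.4, antisense to WARS1, had 0 and 46, where WARS1 had 523 and 1504. The dose change had opposite signs by CPM and TPM in 3 of 42 members on plastic (HYOU1, DERL1 and ASNS) and 7 of 42 on gel (HYOU1, WARS1, HSPA5, CANX, SYVN1, CHAC1 and MTHFD2), none of which but HYOU1 on plastic was called on that substrate by counts.

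Related genes outside the 44 were read from the same fit. Of 127 further genes in 6 lists (ER folding, translocation and glycosylation, ERAD, ATF4 targets, amino acid enzymes and transporters, tRNA ligases), 123 were tested. By substrate 1 passed, SERPINH1 (HSP47), the collagen chaperone, which stood at 73.5 ± 4.28 CPM on gel and 103 ± 6.47 on plastic at 250 nM and at 63.8 ± 12.4 and 128 ± 14 at 100 nM. It was 2.00-fold lower on gel at 100 nM (log2 change -1.0 ± 0.18, adjusted p = 0.043) and 1.67-fold lower over both doses (adjusted p = 0.0176). Between doses 14 of 123 were called on gel (11.4%), 8 higher and 6 lower at 250 nM, and 8 of 123 on plastic (6.5%), 6 higher and 2 lower, both below the shares of all genes given above. In the ER folding list 4 of 22 were called on gel and 1 on plastic; ERP29, an ER protein of the isomerase family, was higher on both, 2.35-fold on gel and 1.63-fold on plastic (adjusted p = 0.00331 and 0.0341). In the translocation, glycosylation and traffic list 1 of 28 was called on gel and 3 on plastic, among them RPN2, a subunit of the oligosaccharyltransferase, 2.24-fold higher on plastic (0.0132), and TMED2, a cargo receptor, 3.16-fold lower there (0.0101). In the ERAD list 3 of 20 were called on gel, VCP, the ATPase that extracts ERAD substrates, 1.64-fold higher (0.0256) and EDEM3, a relative of EDEM1, 2.57-fold lower (0.0123), and 2 on plastic. Of the other ATF4 targets 2 of 19 were called on gel, JDP2 higher and VEGFA lower, and 0 on plastic. Of the amino acid enzymes and transporters 2 of 17 were called on gel, both higher, the proline enzyme PYCR1 by 4.91-fold (adjusted p = 0.0165) and the alanine transaminase GPT2 by 2.27-fold (0.0174), and 1 on plastic, the transporter SLC38A2, 1.69-fold higher (0.0131). Of the other tRNA ligases 2 of 17 were called on gel and 1 on plastic, the glutaminyl ligase QARS1 being higher on both, by 1.86-fold and 1.73-fold (0.0123 and 0.0267), and the leucyl ligase LARS1 lower on gel, by 2.13-fold (0.0315).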

How the data were processed

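Expected counts and TPM are gene-level RSEM estimates that the authors deposited, per the file headers: an expected count is the estimated number of reads of a gene, and TPM is scaled by transcript length and library total. The mean transcript length that RSEM reports, in bases, was also deposited, per the file headers. Per the submitters' processing notes, the tools were STAR, RSEM, Trimmomatic and DESeq2 1.36.0, with build GRCh38; not given in the sources used here are the annotation release, the strand setting and the treatment of molecular identifiers.

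Expected counts were rounded. Genes were kept by filterByExpr over the 4 groups (12329), scaled by TMM and tested in R 4.3.3 with edgeR 4.0.16 (quasi-likelihood, robust shrinkage, 1 mean per group, 8 residual degrees of freedom), in 6 comparisons. P-values were adjusted by Benjamini and Hochberg over all 12329 genes and called under 0.05. CPM uses the TMM-scaled library size. The common biological coefficient of variation was 0.299, and log2 changes had a median SE of 0.363 (gel, 250 nM), 0.334 (gel, 100 nM) and 0.349 (each dose comparison). The test was tried on simulated counts; DESeq2 1.42.0 and limma 3.58.1 on log2(TPM + 1) were among the alternatives.

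The members and lists were chosen with earlier results of these data known. Values in every library are given for 8 fixed members (HSPA5, XBP1, HERPUD1, ATF4, DDIT3, TRIB3, ASNS, PSAT1), each member called in any comparison, and the 2 per branch with the largest gel change over both doses and the 2 with the largest dose change, at a mean CPM of at least 5. From the further lists, genes called by substrate are named by rule; those named for dose were chosen after their values were seen. Promoters are RefSeq windows of GRCh38.p14; gene positions and overlaps are GENCODE 29, which may not be the submitters' annotation.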

Additional observations from a re-analysis of the deposited data

How the results depend on the processing

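No member was called by substrate in any of the settings run (20 at each dose, 19 over both doses and for the difference between doses). The counts over all genes moved. For gel against plastic at 250 nM, 1 became 181 with no filter on low counts, 89 with DESeq2, 3 with limma-trend on TPM, 2 with the replicate block, 0 on the 2 groups alone and 1 to 6 with a library left out. At 100 nM, 27 became 231, 148, 7 and 10 with no filter, DESeq2, TPM and the 2 groups alone, and 5 to 119 with a library left out. Over both doses, 98 became 468, 339 and 53 with no filter, DESeq2 and TPM, and 38 to 262 with a library left out. For the difference between doses, 0 (771 at an unadjusted p under 0.05, 0 with DESeq2) became 63 with no filter.

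Between doses on gel, 1703 genes and 12 members became 516 and 4 on the 2 groups alone, and 679 to 1861 and 2 to 13 with a library left out. On plastic, 1061 genes and 9 members became 701 and 4 on TPM, 1693 genes on the 2 groups alone, and 118 to 2228 and 0 to 14 with a library left out. HYOU1 on plastic reversed to -0.21 on TPM; its RSEM length was longer at 250 nM. For the other moves the cause was not tested.

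The replicate block left the member counts at 12 on gel and 9 on plastic. Same-numbered libraries of different groups correlated at -0.236 to 0.323 (18 pairs, median 0.071) and others at -0.301 to 0.39 (36 pairs, median -0.052). Robust shrinkage was chosen after seeing the data; the default gave the same member counts. At 250 nM the depth limits genes such as EDEM1, at 4.96 to 10.2 CPM.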
